A study of Homo sapiens with 6 samples.

Results

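The clear lost loci are 1875 positions of open chromatin that were called in both control libraries of H1 human pluripotent stem cells and were called nowhere within 1000 bp in any of the 4 libraries with a hairpin against HNRNPU. They were chosen by the measured calls themselves. Summits of all 6 libraries were pooled into 123131 loci, 41784 of these had a summit within 250 bp in both control libraries, 2372 of the 41784 had no shHNRNPU summit within 250 bp, and the 1875 also had none between 250 and 1000 bp. This is 4.49% of the loci with a summit in both control libraries. The absence of shHNRNPU summits is therefore how the members were picked, it is given below as a description, and no test was run on it.

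The assay was ATAC-seq, which reads open chromatin from the sites where a transposase inserted adapters into the DNA of nuclei. The cells were H1, an established human embryonic stem cell line, grown in mTeSR1 medium on Matrigel, infected with lentivirus that carried a short hairpin RNA and selected with puromycin. Groups were shHNRNPU #1 (2 libraries), shHNRNPU #2 (2 libraries), which are 2 hairpins against HNRNPU, and shLUC (2 libraries), a hairpin against luciferase, which H1 cells lack. The virus and the selection are thus shared by all groups, all libraries come from 1 cell line, and nothing in the labels says whether replicates were separate cultures. The lists held 52168 to 63519 summits, each scored by the −log10 of its q-value in its own library, with lowest scores of 1.301 to 1.309. They hold no read counts, so the depth is unknown, and absence of a summit means that no peak was called there. POU5F1, SOX2, NANOG, LIN28A, DNMT3B and SALL4, markers of pluripotent cells, had at least 1 summit within 2000 bp of a gene end in every library, and LIN28B had 0 in each. HNRNPU had 2 or 3 in every library, which does not measure the knockdown.

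HNRNPU, also called SAF-A, is an abundant nuclear protein that binds RNA and scaffold-attachment DNA and is counted among the components of the nuclear matrix. It associates with nascent transcripts and has roles in splicing, in chromosome structure and in the RNA that coats the inactive X chromosome. Open chromatin outside promoters mostly marks enhancers and other binding sites of transcription factors, which differ more between cell types than promoters do, while the promoters of broadly used genes lie in CpG islands that stay open in most cells.

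Few clear lost loci lay at promoters, and most of those that did lay at promoters poor in CpG. Of the 8542 loci with a summit in both shLUC libraries inside a RefSeq promoter window, from 250 bases before to 50 bases after a gene start, 27 were clear lost loci, which is 0.316%. They fell in 28 windows of 27 genes, 18 protein-coding and 9 lncRNA genes. By share, 1.44% of the clear lost loci lay in such a window against 21.3% of the other loci with a summit in both shLUC libraries. The 4 with the highest score percentile in the weaker shLUC library are shown because, among these windows, their missing control summits were the most prominent. Outside the windows, lost summits lay 391 bp from an end of SYT1 and 471 bp from an end of KCNA2. Their percentiles in the weaker shLUC library were 71.3 and 68.5. The sequences are RefSeq's for GRCh38.p14, 5′ to 3′ along the gene, and capitals mark matches on either strand to GGGCGG, the GC box, to CCAAT, the site of NF-Y, to TATAAA, the core promoter element, to ACAAAG, the core bound by SOX and TCF factors, and to TGANTCA, the AP-1 site, which do not overlap each other here. HIVEP2 (chr6:142945127-142945426, minus strand) encodes a zinc finger DNA-binding protein, and ZBTB25 (chr14:64505164-64505463, minus strand) another. NANOG (chr12:7789152-7789451, plus strand) encodes a homeobox factor of the core pluripotency network, and EWSAT1 (chr15:69080600-69080899, plus strand) is a lncRNA gene.
HIVEP2: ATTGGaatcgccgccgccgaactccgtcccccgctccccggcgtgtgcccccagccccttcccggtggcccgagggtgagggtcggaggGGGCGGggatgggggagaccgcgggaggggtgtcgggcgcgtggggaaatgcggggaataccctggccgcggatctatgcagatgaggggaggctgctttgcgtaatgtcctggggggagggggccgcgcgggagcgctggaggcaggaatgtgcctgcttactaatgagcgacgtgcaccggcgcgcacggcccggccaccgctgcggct
ZBTB25: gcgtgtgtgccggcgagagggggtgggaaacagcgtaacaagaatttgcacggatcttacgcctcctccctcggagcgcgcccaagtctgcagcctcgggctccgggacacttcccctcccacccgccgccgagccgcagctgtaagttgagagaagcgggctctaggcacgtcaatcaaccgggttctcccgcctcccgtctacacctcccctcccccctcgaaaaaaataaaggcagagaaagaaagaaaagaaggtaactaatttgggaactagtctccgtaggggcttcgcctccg
NANOG: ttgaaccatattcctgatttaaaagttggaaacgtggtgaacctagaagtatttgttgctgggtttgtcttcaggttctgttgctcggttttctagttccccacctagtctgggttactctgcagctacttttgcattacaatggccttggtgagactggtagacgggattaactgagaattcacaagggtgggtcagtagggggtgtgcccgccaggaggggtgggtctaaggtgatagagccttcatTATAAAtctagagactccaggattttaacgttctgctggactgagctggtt
EWSAT1: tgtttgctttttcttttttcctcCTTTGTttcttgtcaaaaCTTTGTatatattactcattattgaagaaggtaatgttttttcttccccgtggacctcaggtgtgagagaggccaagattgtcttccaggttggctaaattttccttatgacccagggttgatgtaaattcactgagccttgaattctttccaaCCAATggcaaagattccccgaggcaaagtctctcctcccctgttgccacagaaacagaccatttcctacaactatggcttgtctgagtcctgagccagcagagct

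NANOG was the gene of the core pluripotency list that held a clear lost locus. Its summit lay 51 bases before the gene start, on chromosome 12 at 7789351, and scored 15.5 in shLUC replicate 1 and 7.77 in replicate 2, which are the percentiles 75.5 and 53.5 of their lists. The nearest summits of the shHNRNPU libraries were 1633 and 1568 bp away for shHNRNPU #1 and 1618 and 1585 bp for shHNRNPU #2. These belong to a separate upstream summit near position 7787718 that all 6 libraries called, with scores of 9.26 and 5.71 for shHNRNPU #1, 12.1 and 18.4 for shHNRNPU #2, and 8.25 and 6.06 for shLUC. Scores are not normalized between libraries. For the upstream summit, both shHNRNPU #2 scores and that of shHNRNPU #1 replicate 1 were above both shLUC scores. That of shHNRNPU #1 replicate 2 was below both. The summit at the gene start was called in the shLUC libraries and in none of the others. The proximal NANOG promoter is known as a target of OCT4 and SOX2, and in the window printed above the TATAAA match starts at base 250 and the lost summit lies at base 200, counted from 1 at the 5′ end. NANOG has duplicated and processed pseudogene copies, and the mapping filter behind the files is not given in the sources used here. With absence judged within 5000 bp in place of 1000 bp the NANOG locus is no longer a member.

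At HIVEP2 the lost summit lay 49 bases before the start, scored 13.7 and 13.0 with shLUC, and had shHNRNPU summits 1288, 1291, 1236 and 1272 bp away. At ZBTB25 it lay 132 bases before the start, with scores of 8.89 and 8.01 and shHNRNPU summits 1539 to 1562 bp away in all 4 libraries. At these genes, as at NANOG, every shHNRNPU library had its nearest summit at nearly the same place, just beyond the limit of the rule. EWSAT1 differed, with a lost summit 30 bases after the start, scores of 7.85 and 9.69, and no shHNRNPU summit nearer than 5711 bp. Further coding genes with a lost promoter summit were RBPJL, NKX2-3, CHAT, GPR151, PKHD1, PLIN4, HLA-DQB1 and FHL1 among the 18. CHAT, the enzyme that makes acetylcholine, shares its region with the vesicular transporter SLC18A3, and NKX2-3 is a homeobox factor of gut and spleen mesoderm.

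The 28 windows had a median GC content of 46.5% and a median observed-to-expected CpG ratio of 0.252. The 10657 windows that held another locus with a summit in both shLUC libraries had 66.7% and 0.857, and all 35116 windows had 58.7% and 0.579. HIVEP2, at 72.0% GC, was the richest of the 28. The CpG ratios of HIVEP2 (0.906) and ZBTB25 (0.905), printed above, were higher than 0.857 and so went against the low median. GGGCGG was found in 14.3% of the lost windows, 76.1% of the other occupied windows and 45.0% of all windows, and CCGGAAG, the ETS core, in 0 of 28, 21.3% and 10.3%. TATAAA went the other way, at 21.4%, 3.90% and 11.5%, and so did ACAAAG, at 35.7%, 9.92% and 16.1%, and TGANTCA, at 14.3%, 3.65% and 7.71%. CCAAT was alike in all, at 39.3%, 40.3% and 34.6%. The E-box CANNTG, which holds CACGTG as a special case, was found in 82.1%, 59.2% and 68.7%, CACGTG itself in 3.57%, 10.5% and 7.26%, the octamer ATGCAAAT in 0 of 28, 1.56% and 1.77%, and GCATGCGC in 0 of 28, 6.60% and 3.05%. Both strands were searched, a match is no evidence of binding, and motifs without a match say nothing about the factor. With 28 windows, 1 window is 3.57% of the set. These contrasts were not matched on strength. The median score percentile in the weaker shLUC library was 24.2 for all clear lost loci. It was 75.9 for all loci with a summit in both shLUC libraries within 2000 bp of a coding gene end. The rule also left out 497 loci with a shHNRNPU summit between 250 and 1000 bp away. Of these, 34.6% lay near such an end. How far strength and this rule shape the low promoter share and these contrasts was not tested.

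The clear lost loci were weak in the control libraries. Their median score was 5.07 in shLUC replicate 1 and 4.71 in replicate 2, against 11.7 and 10.8 for the 39909 other loci with a summit in both. In percentiles of each list this was 32.8 and 32.1 against 66.2 and 66.0. The highest score of any member was 25.3 in replicate 1 and 22.5 in replicate 2, and 217 members (11.6%) lay above the 50th percentile in both lists, where 59.7% of the other loci did. The share of loci called lost was lower for stronger loci, from 18.9% where the lower of both percentiles was under 10 to 4.78% between 40 and 50, 1.16% between 60 and 70, 0.0398% between 80 and 90, and 0 of 4859 above 90, with a 95% Wilson upper bound of 0.0790%. Both shLUC libraries ranked the members less alike than the other loci, with a Pearson correlation of percentiles of 0.488 over 1875 loci and 0.786 over 39909. These are correlations across loci of the same libraries and are given as a description. Members covered a lower and narrower range of percentiles than the other loci, and the correlations were not matched on it. Their summits lay a median of 46 bp apart between the replicates, and 39 bp for the other loci.

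**Figure D1:**
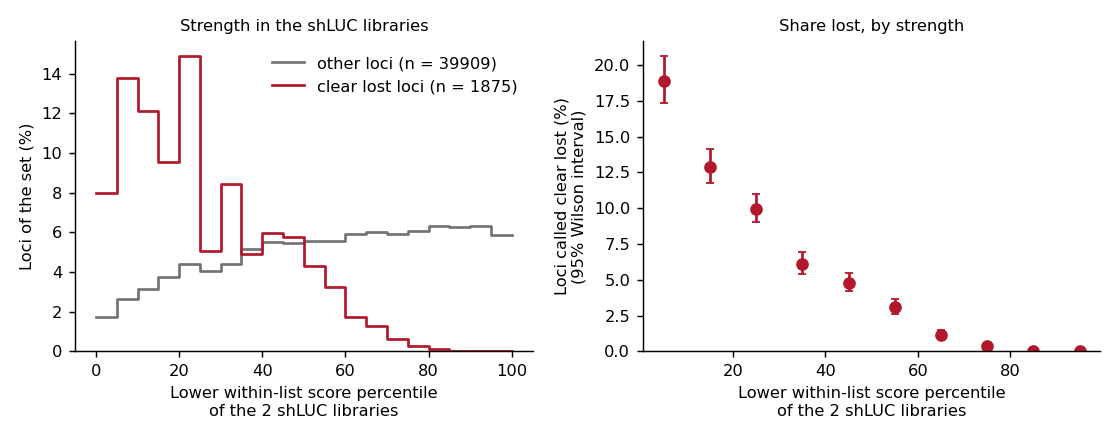
Left, share of loci (%) by the lower within-list score percentile of both shLUC libraries, in steps of 5, for the 1875 clear lost loci and the 39909 other loci with a summit in both. Right, percent of loci called clear lost in each decile of that percentile with 95% Wilson intervals. Most members sit below percentile 50, and the share lost goes from 18.9% in the lowest decile to 0 in the highest.

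The strongest members differed widely in their distance from the nearest shHNRNPU summit, from 1398 to 153190 bp. The RIMS1 locus (position 72245750 of chromosome 6) scored 22.5 and 20.4, and its nearest shHNRNPU summits were 62719 and 62767 bp away for shHNRNPU #1 and 1398 and 27445 bp for shHNRNPU #2, so a single library decides its small distance. RIMS1 is a scaffold of the presynaptic active zone. In KIFC3, a minus-end-directed kinesin, the locus at 57765005 of chromosome 16 scored 19.8 and 22.5, with the nearest shHNRNPU summit 7575 bp away. In FRRS1, a ferric chelate reductase gene, the locus at 99737206 of chromosome 1 scored 16.8 and 16.2, with the nearest summit of each shHNRNPU library 29363 to 29396 bp away. In ASCC3, a helicase of the activating signal cointegrator complex, the locus at 100658648 of chromosome 6 scored 14.6 and 15.2, and the shHNRNPU libraries had nothing nearer than 193507, 153190, 179046 and 193580 bp. KDM4C, a histone lysine demethylase, held one at 6985173 of chromosome 9 with 18.7 and 13.4, where the nearest was 9502 bp away. SYNDIG1L, KIZ and 3 loci outside coding genes, nearest to PRIM2, ADGRD1 and TSPAN8, complete the 10 members with the highest lower percentile, which ranged from 73.2 to 84.5. For these 5 the distance to the closest shHNRNPU summit went from 1758 bp at the TSPAN8 locus to 20967 bp at KIZ.

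At the edge of the rule, the members nearest to a shHNRNPU summit lay in KHDC1 (1008 bp), in ARID4B and GGPS1 (1023 bp) and next to SYT1 (1028 bp). The loci just outside lay in PKP4 (986 bp) and nearest to FBXL17 (982 bp) and REXO2 (974 bp). The SYT1 locus was the strongest of the 6, with scores of 18.8 and 12.6. All 4 libraries had a summit 1023 bp from the ARID4B locus, whereas the PKP4 locus was left out by 1 library and the other 3 had their nearest summits 6704 to 7147 bp away.

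The nearest summit of any shHNRNPU library lay a median of 14367 bp from a member, with quartiles of 6506 and 29944 bp. Within 10 kb, 1171 members (62.5%) had none. The rule sets a floor of 1000 bp on this distance. For scale, the next locus with a summit in both shLUC libraries lay a median of 30.3 kb from a member and 18.2 kb from the other loci. The distance alone therefore does not show how complete a loss was. There were 136 members at 1 to 2 kb, 224 at 2 to 5 kb, 344 at 5 to 10 kb, 932 at 10 to 50 kb, 172 at 50 to 100 kb and 67 beyond. By library, the median distance was 22826 and 20520 bp for shHNRNPU #1 and 21948 and 26016 bp for shHNRNPU #2, so the hairpins overlapped and shHNRNPU #2 replicate 2, the shortest list, lay farthest. The surroundings were sparse in every library: between 1 and 10 kb from a member lay 0.343, 0.356, 0.326 and 0.286 summits on average in the shHNRNPU libraries and 0.329 and 0.325 in the shLUC libraries. Around the other loci the same means were 0.539, 0.567, 0.504, 0.476, 0.494 and 0.501. Between 1 and 50 kb the ratio of members to other loci was 0.616 to 0.640 in the shHNRNPU libraries and 0.702 and 0.679 in the shLUC libraries. Between 1 and 10 kb the ratios lay closer together, at 0.601 to 0.648 and at 0.666 and 0.650. In both ranges the groups did not overlap, but the members were chosen on summits of these same libraries, so the difference is a description.

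**Figure D2:**
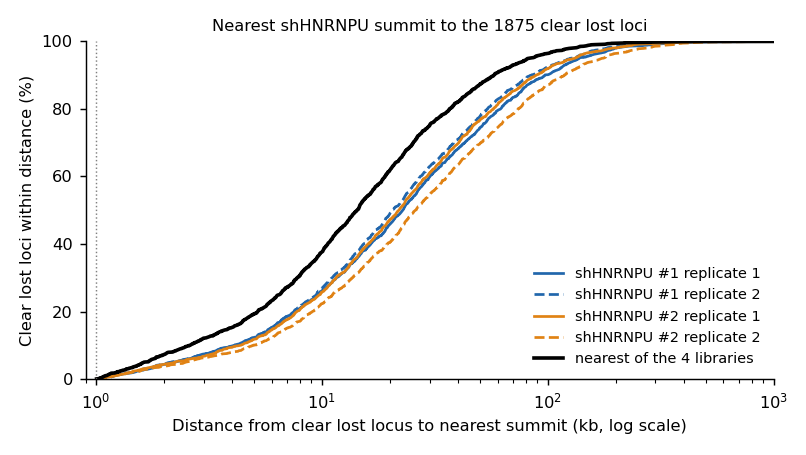
Cumulative percent of the 1875 clear lost loci (vertical axis) within a given distance in kb, on a log axis, of the nearest summit of each shHNRNPU library and of the nearest of all 4. The dotted line is the 1 kb limit of the rule, and the curves of the 4 libraries run close together with medians of 20520 to 26016 bp.

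How far a single library decides membership was read by leaving each out of the rule. Of the loci called lost from the other 5 libraries, 20.7% and 29.1% had a summit within 250 bp in the left-out shHNRNPU #1 library and 22.6% and 15.2% in the left-out shHNRNPU #2 library, where 77.4% to 82.6% of all loci with a summit in both shLUC libraries did. These shares were not matched on strength. The median lower percentile was 24.2 for the 1875 members and 71.4 for loci with a summit in all 6 libraries. Without shHNRNPU #1 replicate 2, 2713 loci were called lost, and without shHNRNPU #2 replicate 2, 2239 were. The controls weighed more. With 1 shLUC library left out the rule gave 9543 and 9695 loci, and 19.7% and 19.3% of them had a summit in the left-out control, where 66.8% and 66.0% of all loci with a summit in the remaining control did. Most loci called in a single shLUC library and lost with shHNRNPU were thus not called in the other shLUC library either, and the requirement of both controls sets the size of the list. Taken alone, a shHNRNPU library lacked a summit within 1000 bp at 12.6% to 18.0% of the 41784 loci.

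The members lay inside coding genes about as often as other loci, but seldom near gene ends. A protein-coding gene contained 847 members (45.2%), against 45.4% of the other loci with a summit in both shLUC libraries, 47.2% of the 724 loci of the reverse pattern (gained) and 43.3% of the 25519 loci called in all 6 libraries. No more than 2000 bp from the start or end of a coding gene lay 77 members (4.11%), against 33.6% of the other loci, 14.0% of gained loci and 40.7% of loci in all 6. Inside a gene and over 2000 bp from its ends lay 804 members (42.9%, other loci 30.2%), and 994 (53.0%, other loci 36.2%) lay outside and over 2000 bp away. Both shares were higher because few members lay near ends. Among loci over 2000 bp from ends, the share lost was 6.26% inside coding genes and 6.44% outside them. A lncRNA gene and no coding gene contained 250 members (13.3%, other loci 11.2%), and 757 (40.4%, other loci 42.2%) lay in no gene of any biotype. The annotation used gives gene bounds and no exons, so introns and exons were not told apart. The median distance to a coding gene end was 68.8 kb for members and 12.2 kb for the other loci, and 792 members (42.2%) were over 100 kb away against 18.2%.

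Distance to gene ends moved with strength, with the number of libraries and with the rule. Within bands of the lower percentile the share near a gene end was 4.41% of members against 17.8% of the other loci below 10, 2.00% against 19.8% between 30 and 40, and 3.57% against 30.5% between 60 and 70. In each band from 0 to 80 members were lower, although the band from 70 to 80 held 17 members, 2 of them near an end. Of the loci with a summit in both shLUC libraries, 15.7% lay near an end where 1 shHNRNPU library had a summit, 20.1% where 2 did, 23.3% where 3 did and 40.7% where all 4 did. The 497 loci excluded because a shHNRNPU summit lay between 250 and 1000 bp away had 34.6% near an end, so that without this exclusion the share of lost loci near an end is 10.5% of 2372. The low share at gene ends thus depends on the 1000 bp rule, and moved by over 1.5 times with it.

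Members were concentrated in regions with few genes and in long genes. A member had a median of 4 coding gene midpoints within 500 kb, against 8 around the other loci, and 222 members (11.8%) had none, against 4.30%. The median was 5 where 1 shHNRNPU library had a summit, 6 where 2 did, 7 where 3 did and 9 where 4 did. The 497 loci left out only because a shHNRNPU summit lay within 1000 bp had a median of 8. Host length was not read in this way. How far the absence rule shapes the density and length contrasts, and whether long hosts lay in gene-poor regions, was not tested. Among loci over 2000 bp from a gene end, the share lost was 11.7% with no gene midpoint within 500 kb, 8.98% with 1 to 3, 6.10% with 4 to 9, 3.61% with 10 to 19 and 2.58% with 20 or more. The median lower percentiles of these loci were 47.7, 47.2, 48.5, 50.3 and 52.4, and the shares were not matched on strength. Inside genes and away from their ends the share lost was higher in longer genes, by the length of the host gene, from 3.10% up to 50 kb to 5.23% for 50 to 200 kb, 8.06% for 200 to 500 kb, 8.51% for 500 to 1000 kb and 10.2% beyond, with median lower percentiles of 52.7, 49.4, 47.0, 46.8 and 45.0. The intervals of the last 3 length classes overlapped, and these shares were not matched on strength either. Host genes had a median length of 241 kb for members and 104 kb for the other loci, and 211 members (24.9% of those in genes) lay in a gene over 500 kb long, against 12.5%.

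**Figure D3:**
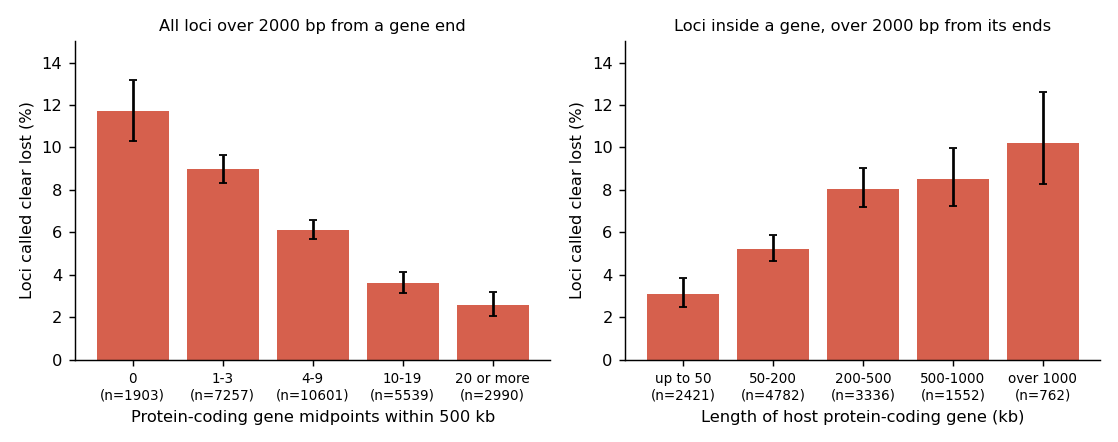
Percent of loci called clear lost (bars, with 95% Wilson intervals that cover counting error only) by the number of protein-coding gene midpoints within 500 kb (left, loci over 2000 bp from a gene end) and by the length of the host gene (right, loci inside a coding gene and over 2000 bp from coding gene ends). The share goes from 11.7% to 2.58% with more genes nearby and from 3.10% to 10.2% with longer hosts. The n under each bar counts loci with a summit in both shLUC libraries.

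By chromosome the share lost was 7.23% on 13 (80 of 1106 loci), 7.08% on 4 (156 of 2202), 6.03% on 18 and 5.84% on X, and 1.19% on 19 (20 of 1678), 1.59% on 17 and 1.97% on 22. Chromosome Y held 0 of 43, with a 95% Wilson upper bound of 8.20%. Chromosomes whose loci have more genes around them had a lower share: Spearman's rank correlation with the median number of genes within 500 kb was -0.92 over the 23 chromosomes without Y, and -0.86 when loci within 2000 bp of a gene end were left out. Chromosomes share their libraries, so this is a description with no p.

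**Figure D4:**
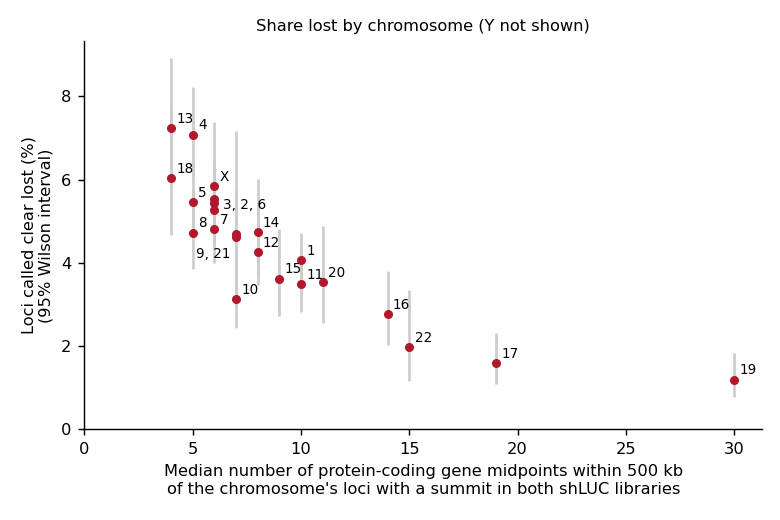
Percent of loci called clear lost on each chromosome (points, with 95% Wilson intervals) against the median number of protein-coding gene midpoints within 500 kb of that chromosome's loci with a summit in both shLUC libraries. Chromosomes 13, 4 and 18, with few genes, lie at 6.03% to 7.23%, and 17, 19 and 22, with many, at 1.19% to 1.97%.

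Recurrence in single genes was limited. Of 15293 protein-coding genes with at least 1 locus called in both shLUC libraries inside or within 2000 bp, 784 (5.13%) held a member: 680 held 1, 84 held 2, 20 held 3 or more, of which 1 held 4. The 784 genes had a median length of 186 kb and the 20 with 3 or more of 1062 kb, against 33.1 kb for all 15293. The gene with 4 was CNTNAP2, a neurexin-related adhesion protein of axons and among the longest human genes, where 4 of 34 loci were lost. Its members were weak, the strongest scoring 4.54 and 7.55, and they lay at 147208181, 147658982, 148058910 and 148115570 of chromosome 7.

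Several genes with 3 members lost a larger share of their loci. ASCC3 lost 3 of 4, MARCHF1, a membrane ubiquitin ligase of immune cells, 3 of 6, and TNNI3K, a cardiac kinase, 3 of 6, where the readthrough gene FPGT-TNNI3K shares the same loci. CTNND2, a delta-catenin of neurons, DGKB, a diacylglycerol kinase, and LRP1B, a giant lipoprotein receptor-related gene, each lost 3 of 8. ATXN1, a transcriptional repressor mutated in spinocerebellar ataxia, and DIP2C each lost 3 of 9, and 2 of the DIP2C loci lay side by side at 436698 and 437246 of chromosome 10. The remaining genes with 3 members went from 3 of 9 in TBC1D1 and 3 of 11 in LSAMP to 3 of 25 in DAB1, and also included GALNT13, GPC6, PTPRD, PRKG1, ROBO2 and ANKS1B. Of the members in these genes, the strongest were one in ASCC3, described above, one in TBC1D1 (scores 14.0 and 11.9), one in GPC6 (12.8 and 20.3) and one in LRP1B (11.1 and 13.5). The GPC6 locus, 8162 bp from an end of this cell-surface glypican gene, had shHNRNPU summits 2878 to 3825 bp away, and the LRP1B locus none nearer than 88194 bp.

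There were 2 protein-coding genes that had at least 2 loci called in both shLUC libraries and lost all of them. FRRS1 lost its strong locus given above and another with scores of 5.56 and 4.16. TMPRSS7, a membrane serine protease, lost loci at 112043799 and 112049146 of chromosome 3, with scores of 8.05 and 5.72 and of 5.88 and 3.60, and the nearest summit of any shHNRNPU library was 30137 bp from the first and 25869 bp from the second. Among noncoding genes 436 of 9323 held a member and 23 held 2 or more. These were led by LOC105374557 on chromosome 4 (3 of 4 loci), by LOC105370214, LOC107986059 and LOC124900459 (2 of 2 each) and by FOXN3-AS3 (2 of 3), which lies inside FOXN3 and shares its loci.

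The gene lists were read against the 4.49% of loci lost in all, and, where distance to gene ends matters, against the 6.36% lost among loci over 2000 bp from an end. Genes of cell identity held few members. The 36 core and primed pluripotency genes with a locus lost 1 of 78 loci (1.28%, the NANOG locus), and naive pluripotency genes 1 of 31, in NR5A2, a nuclear receptor, at 200090791 of chromosome 1 with scores of 8.38 and 7.29. Endoderm genes lost 0 of 29, mesoderm genes 0 of 37, trophoblast genes 0 of 32 and HOX genes 0 of 17 loci, with 95% Wilson upper bounds of 11.7%, 9.41%, 10.7% and 18.4%. Neuroectoderm genes lost 1 of 95, in SOX5, a long SOX-family gene. These numbers are small, and the bounds of all these lists reach above 4.49%. They were 6.91% for core and primed, 16.2% for naive and 5.72% for neuroectoderm genes. A share below that of all loci therefore cannot be read from them. Away from gene ends these 3 lists lost 0 of 34, 1 of 19 (5.26%) and 1 of 53 (1.89%).

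Apart from olfactory receptor genes, the larger shares among the coding-gene lists were those of neuronal surface genes. The list of neuronal adhesion and synapse organisers, with 33 of 73 genes holding a member, lost 51 of 684 loci (7.46%, 95% Wilson interval 5.72% to 9.67%), and 8.39% away from gene ends. Beside CNTNAP2, LRP1B, CTNND2 and LSAMP, an adhesion protein of the limbic system, it includes the receptor phosphatase PTPRD (3 of 17). Glutamate and GABA receptor genes lost 18 of 192 loci (9.38%, interval 6.01% to 14.3%) in 13 of 49 genes, 12.2% away from gene ends. GRIK1 lost 2 of 3 and GRIK3 2 of 4, and both encode kainate receptors. The stronger GRIK1 locus, at 29814378 of chromosome 21, scored 8.38 and 12.1, with no shHNRNPU summit nearer than 35468 bp. Cadherin and protocadherin genes lost 11 of 146 (7.53%), with 2 each in CDH18 and PCDH9, and axon guidance genes 14 of 229 (6.11%), with 3 in ROBO2 and 2 in EPHB1. Many of these genes are very long, and the shares away from gene ends stand beside 8.51% and 10.2% for all host genes of 500 to 1000 kb and beyond, so nothing particular to these lists can be read from them.

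Chromatin modifiers and remodellers lost 6 of 155 loci (3.87%). KDM4C lost 2 of 10 and SMARCA2, an ATPase of the BAF complex, 2 of 5, at 2018997 and 2116278 of chromosome 9, where the second scored 7.89 and 11.3 and had shHNRNPU summits no nearer than 21903 bp. ARID1B, another BAF subunit, and KDM6A, an H3K27 demethylase, held 1 each. Of the nuclear matrix, lamina and chromosome architecture genes, which are of interest because HNRNPU belongs among them, 1 of 36 held a member and 1 of 78 loci was lost (1.28%). It was a weak locus in LMNA, with scores of 1.81 and 5.33 and summits of all 4 shHNRNPU libraries 1136 to 1216 bp away. Of the signalling lists, WNT lost 1 of 136 loci (0.735%, interval 0.130% to 4.05%), in RSPO2, a WNT agonist. NODAL, activin and BMP genes lost 3 of 99 (3.03%, interval 1.04% to 8.53%), in FSTL5, FSTL4 and the receptor gene BMPR1B, and FGF genes 2 of 65 (3.08%, interval 0.848% to 10.5%), in FGF12 and FGF14, intracellular members of the family. Away from gene ends these shares were 1.37%, 5.56% and 7.14%.

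Zinc finger genes, which are compact and clustered in gene-rich regions, lost 7 of 708 loci (0.989%, interval 0.480% to 2.03%), 2 of them in ZNF236. These 708 loci were strong, with a median lower percentile of 74.9. Of all loci with a summit in both shLUC libraries, 0.355% were lost between percentiles 70 and 80. Only 240 of the 708 lay over 2000 bp from a gene end, and 2.92% of these were lost, against 6.36% of all such loci. Whether strength or position accounts for the low share was not tested. Potassium channel genes lost 10 of 210 (4.76%), among them the strong KCNA2 locus 471 bp from a gene end, with scores of 16.5 and 11.5 and shHNRNPU summits 11418 to 11486 bp away. SOX, FOX, PAX and POU genes lost 7 of 188 (3.72%), with 2 each in FOXP2 (of 4) and FOXN3 (of 12). Solute carrier genes lost 16 of 653 (2.45%), voltage-gated calcium and sodium channel genes 2 of 110, collagen genes 2 of 98, ADAM and ADAMTS genes 3 of 103, receptor tyrosine phosphatases 6 of 104 and phosphodiesterases 5 of 103. Olfactory receptor genes, with little open chromatin in these cells, lost 4 of 33 (12.1%, interval 4.82% to 27.3%). LINC genes lost 60 of 1267 (4.74%), microRNA genes 9 of 403 (MIR30A among them), small nuclear and nucleolar RNA genes 6 of 179, and ribosomal protein symbols 8 of 253, where the 5 with the strongest loci are pseudogenes. Classes were taken by symbol, so antisense genes and pseudogenes count in them.

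Members clustered little. Another member lay within 20 kb of 42 (2.24%), within 50 kb of 143 (7.63%) and within 100 kb of 273 (14.6%), and around the other loci with a summit in both shLUC libraries a member lay within these distances for 2.18%, 5.83% and 11.6%. Gained loci lay within 50 kb of 2.03% of members and 4.44% of the other loci. Of 2862 windows of 1 Mb with such loci, 1549 held 0 members, 873 held 1, 344 held 2, 74 held 3, 18 held 4 and 4 held 5. Read along the chromosome, 1587 members stood alone between loci that were not lost, and 128 pairs, 8 runs of 3 and 2 runs of 4 had no such locus between them.

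The runs with the most members had 4 each. The first spanned 349 kb at ASCC3, from 100493356 to 100841962 of chromosome 6, and its 4 loci scored 6.0 and 3.41, 14.6 and 15.2, 9.44 and 10.2, and 4.77 and 2.92 with shLUC. The shLUC libraries had 4 and 5 summits in the span, and the shHNRNPU libraries had 0 and 2 for shHNRNPU #1 and 0 and 0 for shHNRNPU #2. The stretch was thus not wholly without calls after knockdown, since shHNRNPU #1 replicate 2 had 2. The second run spanned 367 kb beside FSTL5, a follistatin-like gene of the nervous system, from 160953149 to 161320618 of chromosome 4, and its strongest locus, at 161198163, scored 18.95 and 8.19. There the shLUC libraries had 6 and 7 summits, shHNRNPU #1 had 0 and 1, and shHNRNPU #2 had 2 and 0. FSTL5 itself held a further member at 161525333, with scores of 9.44 and 10.7, so that the window from 161 to 162 Mb lost 4 of its 7 loci. The summit map shows that strong summits on both sides of the ASCC3 run, and at the near end of FSTL5, were called in all 6 libraries.

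**Figure D5:**
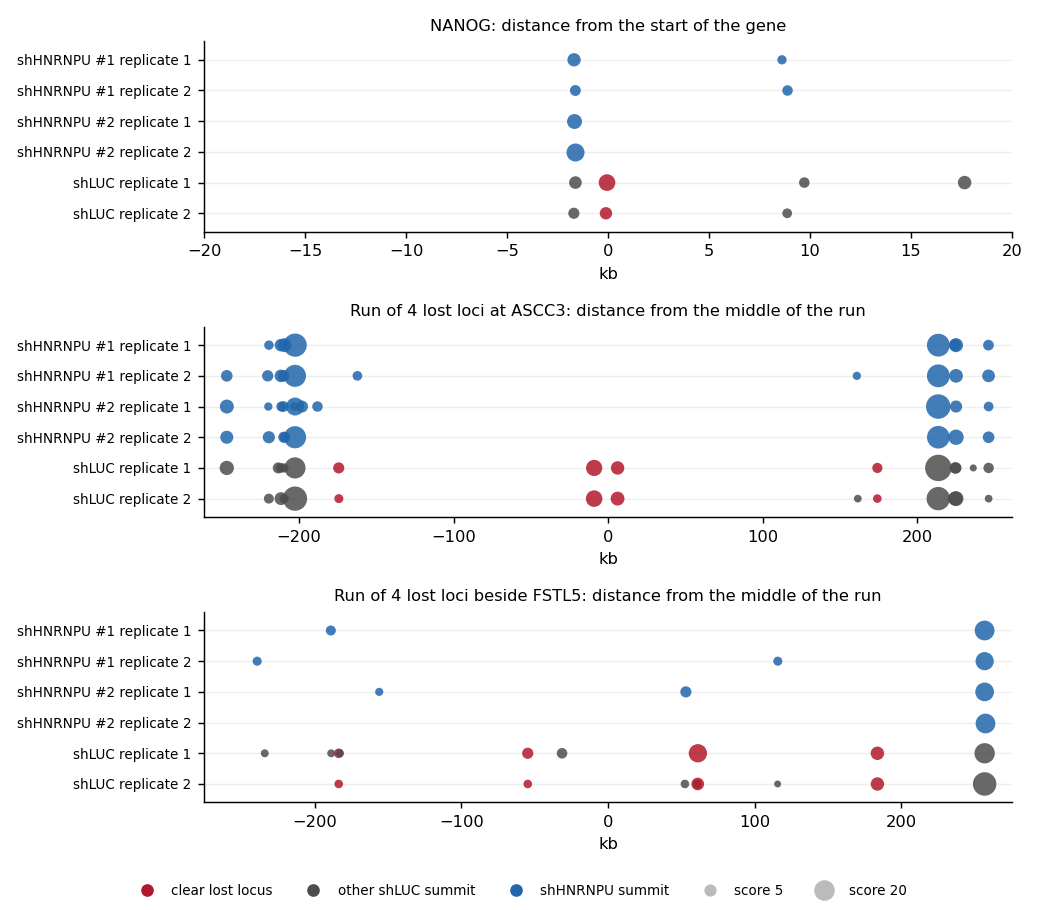
Summits of the 6 libraries (rows) by distance in kb from the start of NANOG (top) and from the middle of the runs at ASCC3 (middle) and beside FSTL5 (bottom), where the area of a point grows with its score. Clear lost loci are red, other shLUC summits grey and shHNRNPU summits blue. The red points have no blue point within 1 kb, and the upstream NANOG summit is in all 6 rows.

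The run of 3 with the widest span, 1182 kb, lay on chromosome X with loci in PHEX and PTCHD1-AS. Other runs of 3 lay in MARCHF1, where the scores were 10.5 and 9.02, 7.18 and 10.2, and 5.55 and 4.83, and in TNNI3K, where the weakest locus scored 1.47 and 2.08. In the MARCHF1 run, unlike the runs of 4, every shHNRNPU library had summits of its own, 1 or 2 each, between the lost loci. Another lay on chromosome 6 beyond IMPG1, a retinal matrix proteoglycan gene, in the window from 76 to 77 Mb that lost 5 of 12 loci and has 1 coding gene. The window from 70 to 71 Mb of chromosome 3 lost 5 of 9 loci, 1 in FOXP1, a forkhead factor, 2 in the lncRNA gene SAMMSON and 2 between genes. Its strongest member, at 70533011, scored 15.5 and 6.27 and had no shHNRNPU summit nearer than 82398 bp. The window from 22 to 23 Mb of chromosome 11 lost 5 of 20, none of them in a coding gene, and its strongest member, in LINC02718, scored 16.3 and 11.4.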

How the data were processed

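The authors deposited 1 list of summits per library, each 1 bp wide, from peaks called separately in each of the 6 ATAC-seq libraries. The deposited score is, from its layout and values, the −log10 of a q-value in the MACS layout, and it was not normalized between libraries. The submitters' processing notes name cutadapt, Bowtie2, SAMtools, MACS2, deepTools and the build hg38. Their versions, parameters and any duplicate or mapping filter are not given in the sources used here. No article describing these libraries was used, and the paper at hand concerns other cells and served for style alone. The number of summits and the scores move with read depth, which is unknown.

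Scores were turned into percentiles within each list. Summits were grouped, the highest percentile first, with all summits within 250 bp absorbed, so that loci could not chain. Absence was judged within 1000 bp, and loci were placed on the RefSeq gene table of GRCh38.p14 (20033 protein-coding genes), which gives gene bounds without exons or strand. All symbols of the gene lists but 2 were matched. Promoter windows came from RefSeq, and the table has none on chromosome 8. Other genome sequence was not used here. Wilson intervals (95%) cover counting error only.

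The members, gene lists, classes and motifs were chosen with earlier results of these data known. No test was run, because the rule uses every library. Named were the 10 coding genes with the most members, the 10 members with the highest lower percentile, up to 5 genes per list, the 5 windows of 1 Mb with the most members, the runs with the most members, the loci at the limit of the rule and up to 6 promoters. The further genes with 3 members, the genes that lost all their loci and the other promoter genes were named after their values were seen. Some genes, a gene class and a window that these rules name are not reported here. Alternatives are given in the closing section. The grouping was tested on simulated summits. Python 3.11.15 was used with numpy 2.4.6, pandas 2.3.3, scipy 1.17.1 and matplotlib 3.10.9.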

Additional observations from a re-analysis of the deposited data

How the results depend on the processing

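No paired analysis was possible because no result comes from a test. The number of clear lost loci, 1875, stayed within 1.5 times (1283 to 2372) under each alternative that kept all libraries, but which loci were members depended on the score. With a score of at least 5, 1332 loci were lost and 29.9% of the 1875 were among them, and with summits over their list's median score, an alternative chosen after seeing the data, 1283 were lost and 11.6% of the 1875 were. Fewer shHNRNPU summits then count against a locus, and weak members drop out. The percent of loci lost was 4.28% with a score of at least 5, 4.02% with equal lists (52168 summits each), 4.12% with a presence distance of 100 bp, 5.68% and 3.63% with absence distances of 250 and 5000 bp, and 5.33% above the median. The share within 2000 bp of a gene end was 10.5% and 2.44% with absence distances of 250 and 5000 bp, 5.46% above the median, 1.49% for a distance of 500 bp to the end, and 11.4% with genes of all biotypes, which held 59.6% of members inside. Genes with 3 or more members numbered 3 with a score of at least 5, 10 with equal lists, 11 with 100 bp and 6 above the median. A neighbour within 50 kb was found for 5.18%, 5.53% and 5.81% with a score of at least 5, 100 bp and an absence distance of 5000 bp, and for 2.24% and 14.6% when the distance was 20 and 100 kb. The median percentile was 52.3, 40.6, 35.2, 31.4, 30.7 and 63.4 for the minimum score of 5, equal lists, 100 bp, 500 bp, an absence distance of 5000 bp and summits over the median.

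Leaving out 1 library gave 2239 to 9695 lost loci, 5.37% to 15.4% of loci, 44.4% to 47.5% inside a coding gene, 4.03% to 4.61% near an end, 27 to 398 genes with 3 or more members, 9.02% to 31.0% with a neighbour within 50 kb and a median percentile of 14.9 to 33.1. The highest counts of loci and genes and the lowest median percentiles came from leaving out a shLUC library. Without shHNRNPU #1 replicate 2 there were 2713 loci and 51 genes. Ordering by raw score and autosomes alone left all 7 results within their limits. Depth is unknown, so loss of signal and a score just under the calling threshold cannot be told apart.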
